A study of Mus musculus with 48 samples.

Results

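Of the 48709 genes counted, 6 make up the colony-stimulating factors and receptors described here: the ligands Csf1 and Il34 and the receptor chains Csf1r, Csf2ra, Csf2rb and Csf3r. They were taken by their mouse symbols, not by any measured value, and all 6 passed the filter on low counts in each of the 10 comparisons below. RNA was sequenced from 46 male C57BL/6J mice in 8 groups. The paper gives the dentate gyrus of the hippocampus as the tissue sequenced. For the 4-month mice the tissue is uncertain, as described below. At 3 months there were 5 wild type and 5 FMN2 knock out mice, and at 8 months 3 wild type and 5 FMN2 knock out mice; the knock out lacks formin 2, an actin nucleator, in the whole animal. At 3 months a cross of the knock out with the APPPS1-21 amyloid line gave 7 mice labelled FMN2-/-_APP and 9 labelled FMN2 +/+ APP, all labelled as carrying the amyloid transgenes. In a separate experiment, 6 APP and 6 wild type mice were labelled 4 months old. The amyloid line carries mutant human transgenes, APP among them, under a Thy1 promoter, which drives expression in neurons.

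CSF1 and IL-34 are the 2 ligands of the receptor tyrosine kinase CSF1R, whose signal microglia and other macrophages need to survive and divide. In the brain IL-34 is made mainly by neurons, whereas CSF1 comes more from glia. CSF2RA binds the cytokine GM-CSF and signals only together with the shared beta chain CSF2RB, which in the mouse has a close neighbour, CSF2RB2, that serves IL-3. CSF3R is the receptor of G-CSF, best known from neutrophils and their precursors.

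Each member lies on a chromosome of its own in the mm10 genome. Csf1 is at chr3:107741048-107760469 on the minus strand, Il34 at chr8:110741829-110805924 on the minus strand, Csf2ra at chr19:61223957-61228429 on the minus strand, Csf2rb at chr15:78325752-78353847 on the plus strand and Csf3r at chr4:126024550-126044440 on the plus strand. Genes annotated on the opposite strand overlap Il34 (Gm15894 and Gm15895) and Csf1r (Hmgxb3), and without a statement on strand their reads cannot be told apart where they overlap. RefSeq promoters of build GRCm38.p6 were looked up for Csf1, Il34, Csf2ra, Csf2rb and Csf3r and matched for 3 of them. Csf1r, also called higher in 4-month APP mice, was not looked up. The bases directly upstream of the annotated starts are shown because Csf1 and Csf3r were both called higher in 4-month APP mice and Csf2ra was not. The windows end at the annotated start and hold no bases of the annotated gene. Capitals mark GGAA or its reverse complement TTCC, the core bound by ETS factors such as PU.1, the product of Spi1, which directs macrophage genes.

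Csf1, chr3:107760470-107760719, minus strand: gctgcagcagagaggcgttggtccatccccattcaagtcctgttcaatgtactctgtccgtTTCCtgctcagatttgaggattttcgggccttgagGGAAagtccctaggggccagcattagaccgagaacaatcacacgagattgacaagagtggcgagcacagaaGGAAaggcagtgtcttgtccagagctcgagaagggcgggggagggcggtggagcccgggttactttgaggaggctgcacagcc
Csf3r, chr4:126024409-126024549, plus strand: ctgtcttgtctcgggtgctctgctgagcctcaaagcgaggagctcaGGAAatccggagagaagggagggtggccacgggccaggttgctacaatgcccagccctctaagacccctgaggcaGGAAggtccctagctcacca
Csf2ra, chr19:61228430-61228668, minus strand: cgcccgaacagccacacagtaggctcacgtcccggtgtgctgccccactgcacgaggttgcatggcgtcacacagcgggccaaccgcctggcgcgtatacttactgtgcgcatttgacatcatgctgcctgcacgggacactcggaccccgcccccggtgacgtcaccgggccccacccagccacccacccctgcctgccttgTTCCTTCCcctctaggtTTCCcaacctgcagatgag

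The core occurred 3 times in the 250 bases of Csf1, 2 times in the 141 bases of Csf3r and 3 times in the 239 bases of Csf2ra, counting both strands. Windows of those lengths at 32851 RefSeq promoters held it in 93.4%, 79.6% and 92.6% of cases, so its presence sets none of the 3 apart. The longer purine form GAGGAA, or TTCCTC on the other strand, was in none of the 3 windows and in 23.3%, 14% and 22.1% of all promoters at the same lengths.

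Some libraries went against their labels. Levels are given as CPM, read counts scaled to the size of the library. Fmn2 was 84.2 to 103.7 CPM in the libraries labelled FMN2-/-_APP and 19.2 to 24.2 in those labelled FMN2 +/+ APP, against 93.2 to 113 in 3-month wild type and 23 to 28.1 in 3-month FMN2 knock out mice. The 4-month libraries have dentate gyrus as their tissue label but titles that name PFC and more than 1 age, so that both tissue and age are uncertain. In them the 6 granule cell markers (Prox1 and C1ql2 among them) summed to 25.8 to 37.5 CPM, against 452 to 901 CPM in all others, and cortical neuron markers were higher. Thy1 was 1829.6 to 2379 CPM in 4-month APP mice and 696 to 757 CPM in their controls, but 3 of the cross mice (FMN2-/-_APP replicates 1 and 7 and FMN2 +/+ APP replicate 4) lay in the range of mice without the transgenes, 644 to 920 CPM. App, which reads of the human transgene can match in part, was 2687 to 3071 CPM in 4-month APP and 1756 to 1930 CPM in their controls; in the cross App overlapped the 3-month mice without the transgenes. Choroid plexus markers summed to over 1000 CPM in 3-month FMN2 knock out replicate 4 and in FMN2 +/+ APP replicates 4 and 5. Reads per mouse ran from 6818809 in 8-month wild type replicate 2 to 43921030 in replicate 1 of the same group. In 4-month mice genotype coincided with the sequencing lane.

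Per kb of exon, the scale on which genes can be compared, Il34 was the most abundant member in 45 of 46 mice. Its mean level was 24 ± 2.32 CPM per kb (SD, n = 5) in 3-month wild type mice, where Csf1r stood at 11.3 ± 0.771, Csf1 at 5.65 ± 0.396, Csf2ra at 4.7 ± 0.642, Csf3r at 0.95 ± 0.171 and Csf2rb at 0.226 ± 0.0284 CPM per kb. This order held in 32 mice. In 13 others Csf2ra stood above Csf1, among them every 4-month mouse, and in the remaining mouse, FMN2 +/+ APP replicate 8, Csf1r and Csf1 both stood above Il34. In 3-month wild type mice the ranges of the neighbours Csf1 and Csf2ra overlapped on this scale and those of Il34 and Csf1r did not, whereas in the cross Il34 and Csf1r overlapped too.

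**Figure D1:**
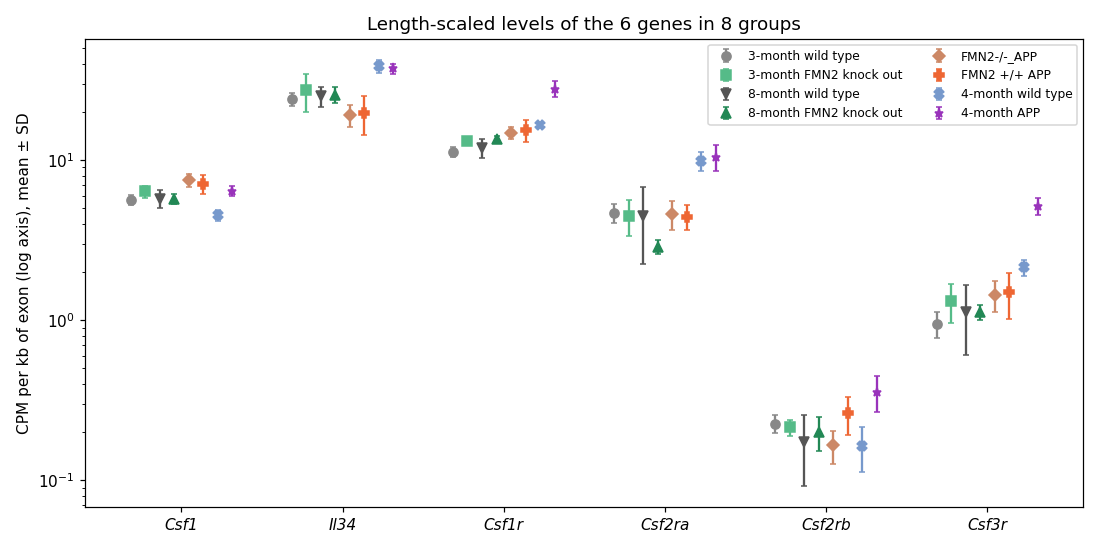
Mean level of each member in CPM per kb of exon (log axis) with SD as error bars, one symbol for each of the 8 labelled groups. Il34 lay highest and Csf2rb lowest in each group mean, and Csf2ra and Csf3r were higher in both 4-month groups than in all others.

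The 2 ligands of CSF1R were present in different proportions across the groups. The ratio of Il34 to Csf1, both per kb, was 4.26 ± 0.31 (SD, n = 5) in 3-month wild type mice and 8.6 ± 1.07 (n = 6) in 4-month wild type mice. It was 5.85 ± 0.745 (n = 6) in 4-month APP mice, with a range of 4.74 to 6.99 that did not reach the lowest 4-month wild type value, 7.21. In the cross it was 2.6 ± 0.535 (n = 7) in the FMN2-/-_APP group and 2.84 ± 0.908 (n = 9) in the FMN2 +/+ APP group. The ligands of the other receptors were almost absent: Il3 had 0 reads in every library, which allows at most 3 reads in each, and Csf2 and Csf3 never exceeded 0.0569 and 0.238 CPM.

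The comparison of 4-month APP and wild type mice asks what amyloid does to the transcriptome. Csf1, Csf1r, Csf2rb and Csf3r rose, while Il34 and Csf2ra did not pass the test. A gene was called changed at an adjusted p below 0.05 and an absolute log2 fold change at or above a threshold. The fold threshold was 0.5 in the amyloid and tissue comparisons and between the 2 cross groups. It was 0.25 for Fmn2 genotype without amyloid and for age. P-values came from edgeR's quasi-likelihood test and were adjusted over all genes tested by the method of Benjamini and Hochberg. Here 4 of 6 members were called, all upward, where 2.34% of the 16733 genes tested were called. The median log2 fold change was 0.63 over the members and -0.00041 over all genes tested.

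Csf3r changed by the largest factor among the members. Its lowest, median and highest values were 15.7, 18.6 and 21.4 CPM in APP mice and 6.32, 7.77 and 9.12 CPM in wild type mice. Every APP mouse thus lay above every wild type mouse, and the log2 fold change was 1.28 ± 0.0967 (SE; adjusted p = 6.75e-08, edgeR quasi-likelihood test). Neutrophil markers, which include S100a8 and Ly6g, summed to 0.286 to 0.787 CPM in APP and 0.272 to 1.93 CPM in wild type libraries, and none of the 8 passed the filter on low counts.

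Csf2rb, the beta chain, was the least abundant member. It ranged from 1.98 through a median of 2.41 to 3.61 CPM in APP mice, on 54 to 97 reads, and from 0.829 through 1.09 to 1.88 CPM in wild type mice, on 14 to 33 reads. The ranges did not overlap, and the log2 fold change was 1.12 ± 0.205 (SE; adjusted p = 0.00221, edgeR quasi-likelihood test). Its partner chain Csf2ra gave 25, 28.2 and 39.9 CPM (lowest, median, highest) in APP and 22.1, 29.1 and 32.7 CPM in wild type mice. These ranges overlapped and the log2 fold change of Csf2ra was 0.08 ± 0.11 (adjusted p = 0.838, edgeR quasi-likelihood test).

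Csf1r, at chr18:61100598-61132149 on the plus strand, marks microglia and other macrophages in brain tissue. It gave 136, 162 and 188 CPM in APP mice (lowest, median, highest) and 90, 95 and 102.2 CPM in wild type mice. The groups lay far apart, with a log2 fold change of 0.75 ± 0.0651 (SE; adjusted p = 3.96e-07, edgeR quasi-likelihood test). Its ligand Csf1 ran from 30.9 through 33.8 to 37.2 CPM in APP and from 22.2 through 22.9 to 27.1 CPM in wild type mice, a log2 fold change of 0.51 ± 0.066 (adjusted p = 6.92e-05, edgeR quasi-likelihood test). That lies just above the fold threshold: without APP replicate 3 or 4, or without wild type replicate 1, 4, 5 or 6, it was 0.48 to 0.50, below the threshold, at an adjusted p of at most 0.00034. The other ligand, Il34, gave 65.4, 73.4 and 80.1 CPM in APP and 65.8, 78.8 and 81.3 CPM in wild type mice, almost the same range, with a log2 fold change of -0.05 ± 0.0587 (adjusted p = 0.79).

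**Figure D2:**
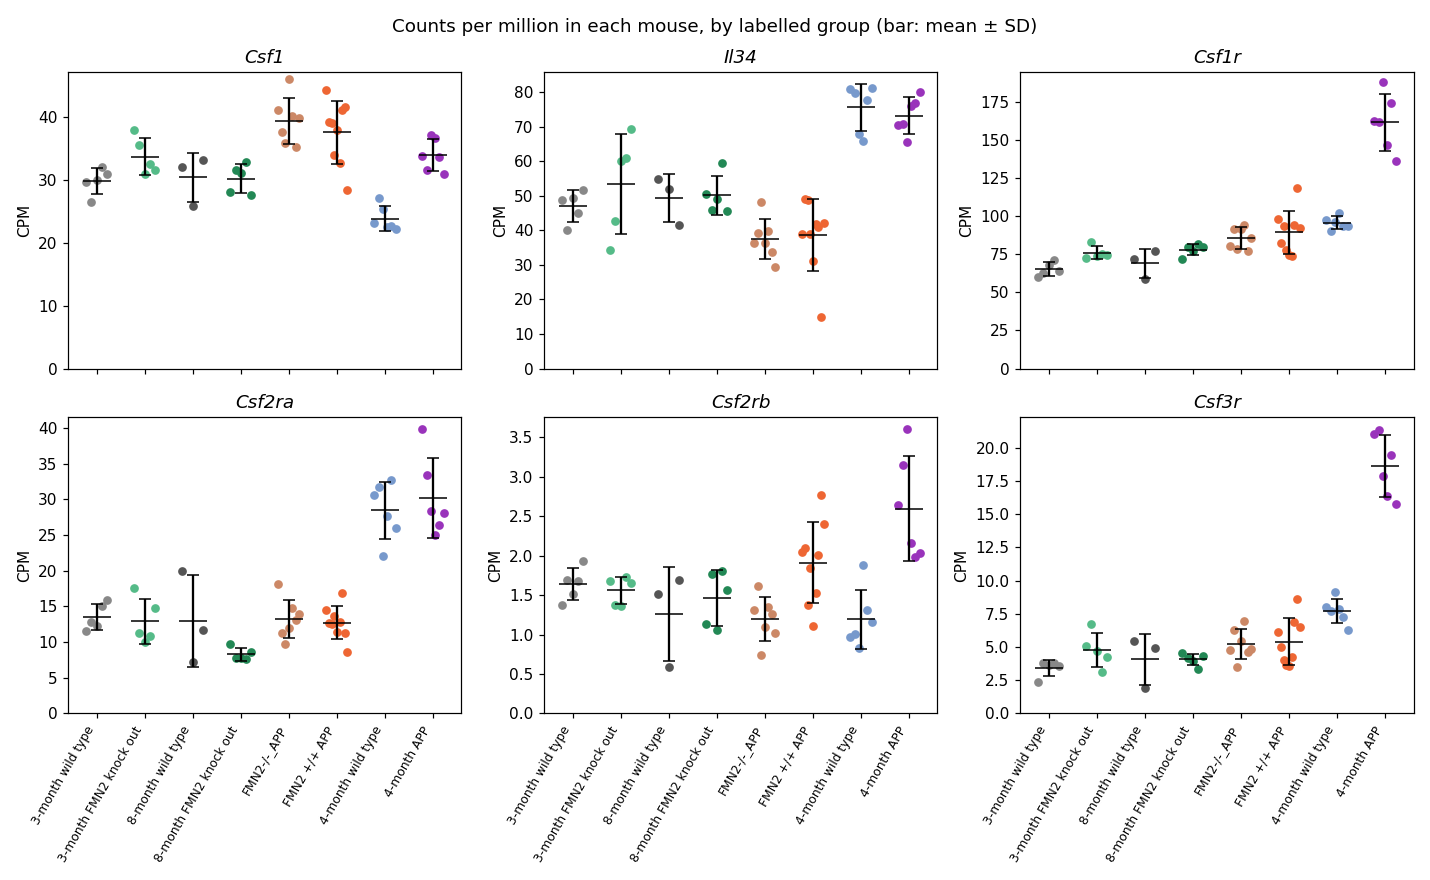
CPM of each member in each of the 46 mice by labelled group, with the mean and SD as bars; each panel has its own axis from 0. In 4-month APP mice Csf1, Csf1r, Csf2rb and Csf3r lay above every 4-month wild type mouse, while Il34 and Csf2ra overlapped.

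Genes of the pathway other than the members were taken from a list of 24, of which 18 were tested in this comparison; 7 were called upward and 0 downward. Tyrobp, the adaptor through which TREM2 and other microglial receptors signal, rose from 9.48 to 11.1 CPM in wild type mice to 41.3 to 64.3 CPM in APP mice, a log2 fold change of 2.29 ± 0.0887 (adjusted p = 9.7e-12, edgeR quasi-likelihood test). The phosphatase Ptpn6 rose by 1.31 and the macrophage transcription factors Irf8 and Spi1 by 1.45 and 1.01 on the log2 scale. Csf2rb2, the near copy of Csf2rb, rose by 0.66 ± 0.164 (adjusted p = 0.0281, edgeR quasi-likelihood test). The kinases Jak1 and Jak2, which carry the signal of GM-CSF and G-CSF receptors, gave 0.02 and -0.09 on the log2 scale, and Stat5b 0.01; none of them was called. The pathway list had a median log2 fold change of 0.25.

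Microglial markers moved with these genes. Of 8 markers of homeostatic microglia 6 were called upward, Fcrls (1.22), Gpr34 (1.04) and Cx3cr1 (0.63) among them, and their summed level was 374 to 475 CPM in APP and 229 to 252 CPM in wild type mice. Of 8 genes of plaque-associated microglia 7 were called upward, led by Cst7 (7.81), Itgax (5.11) and Clec7a (6.61) on the log2 scale. None of 5 border macrophage markers was called, and their sums were 7.12 to 8.77 and 5.03 to 8.02 CPM. Other cell types moved too. Gfap, the intermediate filament of reactive astrocytes, was 173 to 291 CPM in APP and 48.9 to 67.8 CPM in wild type mice, with no overlap (log2 fold change 2.10), the only one of 4 astrocyte markers called. The sums of 4 oligodendrocyte markers were 1023 to 1657 CPM in APP and 1694 to 4813 CPM in wild type mice. The part of these cell types in the members' values was not tested. More microglia and more RNA of a gene in each cell cannot be told apart in RNA from whole tissue. Genotype and sequencing lane cannot be told apart in this experiment either, since all APP libraries were in lane 7 and all wild type libraries in lane 5.

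**Figure D3:**
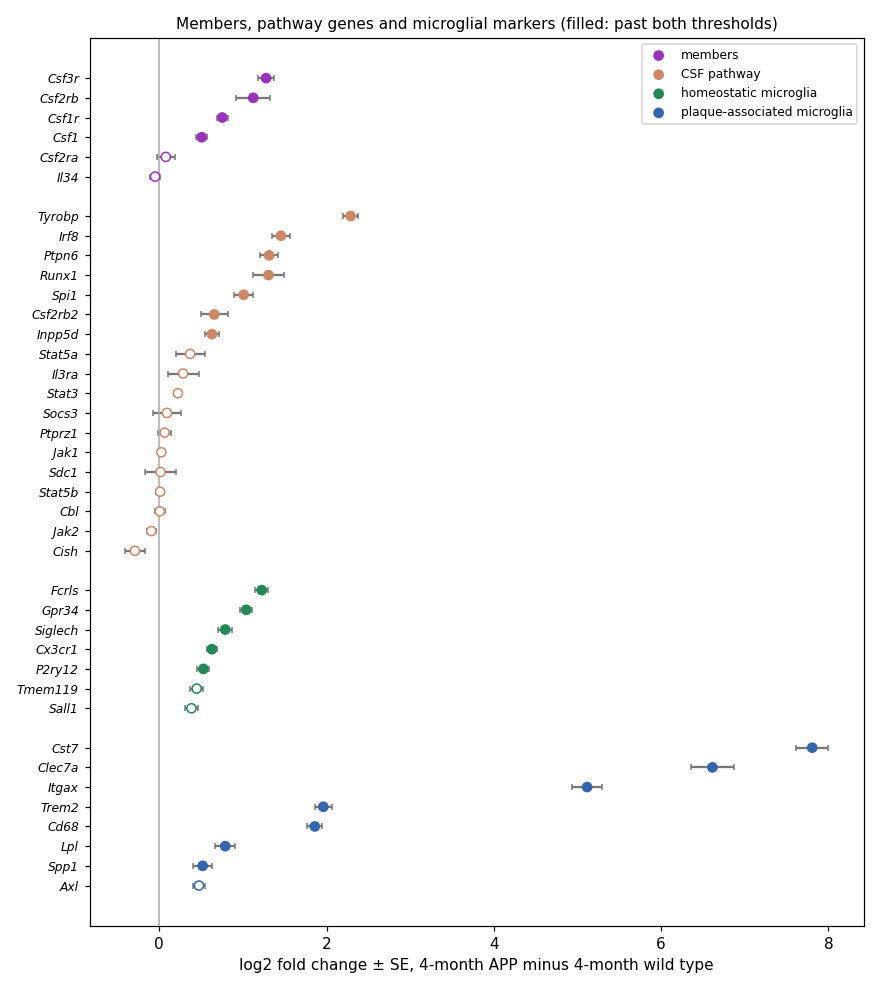
Log2 fold change with SE between 4-month APP and wild type mice for the 6 members, the 18 tested pathway genes and microglial markers of 2 lists; filled symbols passed both thresholds. Csf1r (0.75) and Csf2rb (1.12) lay within the range of the homeostatic microglial markers shown and Csf3r (1.28) just above their highest, Fcrls (1.22), whereas Il34 and Csf2ra lay near 0.

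In the cross, the same line's amyloid transgenes could be compared at 3 months with the wild type and knock out mice of that age. Csf1, Csf1r and Csf3r were higher in the cross and Il34 was lower, each by less than the fold threshold. None of the 6 members was called at the fold threshold, where 16.5% of the 17599 genes tested were called. An adjusted p below 0.05 was reached by 4 of 6 members and by 8701 of the 17599 genes, so it was common here. The differences of these 4 members depended on which mice were compared. By their Fmn2 counts, and against their labels, FMN2 +/+ APP mice were near the knock out mice and FMN2-/-_APP mice near the wild type mice. With FMN2 +/+ APP set against knock out mice alone, Csf1 was 0.19 (adjusted p = 0.166), Csf1r 0.26 (adjusted p = 0.0579) and Il34 -0.45 (adjusted p = 0.129) on the log2 scale, and against wild type mice alone Il34 was -0.29 (adjusted p = 0.215). With FMN2-/-_APP set against knock out mice alone, Csf1r was 0.21 (adjusted p = 0.0398, edgeR quasi-likelihood test). Csf1r ranged over 77.4, 85.7 and 94 CPM in the FMN2-/-_APP group (lowest, median, highest) and 73.5, 91.8 and 118 CPM in the FMN2 +/+ APP group. The 5 wild type mice had 60, 62.4, 64.3, 68 and 71.2 CPM, and the 5 knock out mice 72.3, 73.8, 74.3, 75.4 and 83.1 CPM. All cross mice therefore lay above all wild type mice but overlapped the knock out mice. The log2 difference was 0.33 ± 0.0649 (SE; adjusted p = 0.00017, edgeR quasi-likelihood test).

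Csf1 ranged over 35.3, 39.8 and 45.9 CPM in the FMN2-/-_APP group and 28.3, 39 and 44.3 CPM in the FMN2 +/+ APP group, against 26.5 to 32.1 CPM in wild type and 30.9 to 37.9 CPM in knock out mice. The log2 difference was 0.29 ± 0.0634 (adjusted p = 0.000451, edgeR quasi-likelihood test). Il34 ran from 29.4 to 48.1 CPM and from 14.8 to 49.1 CPM in the cross groups, against 40.2 to 51.8 CPM in wild type and 34.2 to 69.4 CPM in knock out mice, all overlapping. Its log2 difference was -0.39 ± 0.131 (adjusted p = 0.0151, edgeR quasi-likelihood test), and it passed the fold threshold, at -0.50, once counts were adjusted for exon length and GC.

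Csf3r gave 3.52, 4.84 and 6.96 CPM and 3.59, 5.03 and 8.64 CPM in the cross groups (lowest, median, highest), against 2.34, 3.55, 3.68, 3.76 and 3.81 CPM in wild type and 3.1, 4.28, 4.7, 5.11 and 6.7 CPM in knock out mice. The groups overlapped, with a log2 difference of 0.40 ± 0.153 (adjusted p = 0.0314, edgeR quasi-likelihood test). Against wild type mice alone it was called in both cross groups, at 0.61 and 0.65, and against knock out mice alone in neither, at 0.16 and 0.21; adjusted for exon length and GC it was 0.30 (adjusted p = 0.102). Of the 8 neutrophil markers 1 passed the filter on low counts, S100a9, and was called higher in the cross (2.73 on the log2 scale). The sums of the 8 were 0.27 to 3.66 CPM in the FMN2-/-_APP and 0.223 to 1.75 CPM in the FMN2 +/+ APP group, against 0.0646 to 0.266 CPM in wild type and 0.0877 to 0.444 CPM in knock out mice. Their part in the Csf3r values was not tested. Csf2ra (-0.01, adjusted p = 0.937) and Csf2rb (-0.07, adjusted p = 0.69) did not pass the same test.

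Without the 3 cross mice whose Thy1 lay in the range of mice without the transgenes, the log2 differences were 0.36 for Csf1r, 0.30 for Csf1, -0.36 for Il34 and 0.46 for Csf3r, all with an adjusted p below 0.05 and below the fold threshold. Of the pathway genes, Tyrobp (1.16), Sdc1 (0.98), which encodes a surface proteoglycan that binds IL-34, and Irf8 (0.52) were called upward, and 0 downward, of 18 tested, a share near the 16.5% of all genes. Markers of several cell types moved in this comparison. Of 8 homeostatic microglial markers 3 were called upward (median log2 difference 0.37), with sums of 201 to 331 and 248 to 332 CPM in the cross groups, 206 to 252 CPM in wild type and 223 to 275 CPM in knock out mice. Of the plaque-associated genes 5 of 8 were called upward and Lpl downward, and of the border macrophage markers Lyve1 and Pf4 were called upward, of 5 (median 0.74). Oligodendrocyte markers were called lower in 3 of 4 (median -0.66) and cortical neuron markers in 3 of 6. The part of these cell types in the members' differences was not tested. Plaque-associated microglial genes varied among the cross mice: Cst7 ran from 0 to 8.42 CPM in the FMN2-/-_APP group and from 0.0404 to 12.3 CPM in the FMN2 +/+ APP group. FMN2 +/+ APP replicate 8, with the highest Cst7, also had the highest Csf1r, Csf2rb and Csf3r and the lowest Il34 of the cross. Cross mice and mice without the transgenes came from different experiments, and amyloid and experiment cannot be told apart here.

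Whether amyloid and non-amyloid mice differed alike in the cross and at 4 months was tested as the difference of the 2 effects. These effects differ in tissue and age too, and amyloid coincided with experiment in the cross and with lane at 4 months. By edgeR's quasi-likelihood test the difference was called for Csf2rb, at -1.19 ± 0.248 (SE; adjusted p = 0.000537), and for Csf3r, at -0.86 ± 0.226 (adjusted p = 0.0044). Both effects were smaller in the cross. S100a9, the neutrophil marker tested, differed the other way, at 3.16. These were 2 of 6 members, where 11.1% of 18276 genes were called. Csf1r differed by -0.42 ± 0.106 (adjusted p = 0.00336), below the fold threshold. Csf1 (-0.21, adjusted p = 0.137), Il34 (-0.33, adjusted p = 0.221) and Csf2ra (-0.09, adjusted p = 0.767) did not pass. Among the pathway genes 5 of 19 were called lower (Ptpn6, Tyrobp, Runx1, Irf8 and Spi1) and Sdc1 higher.

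**Figure D4:**
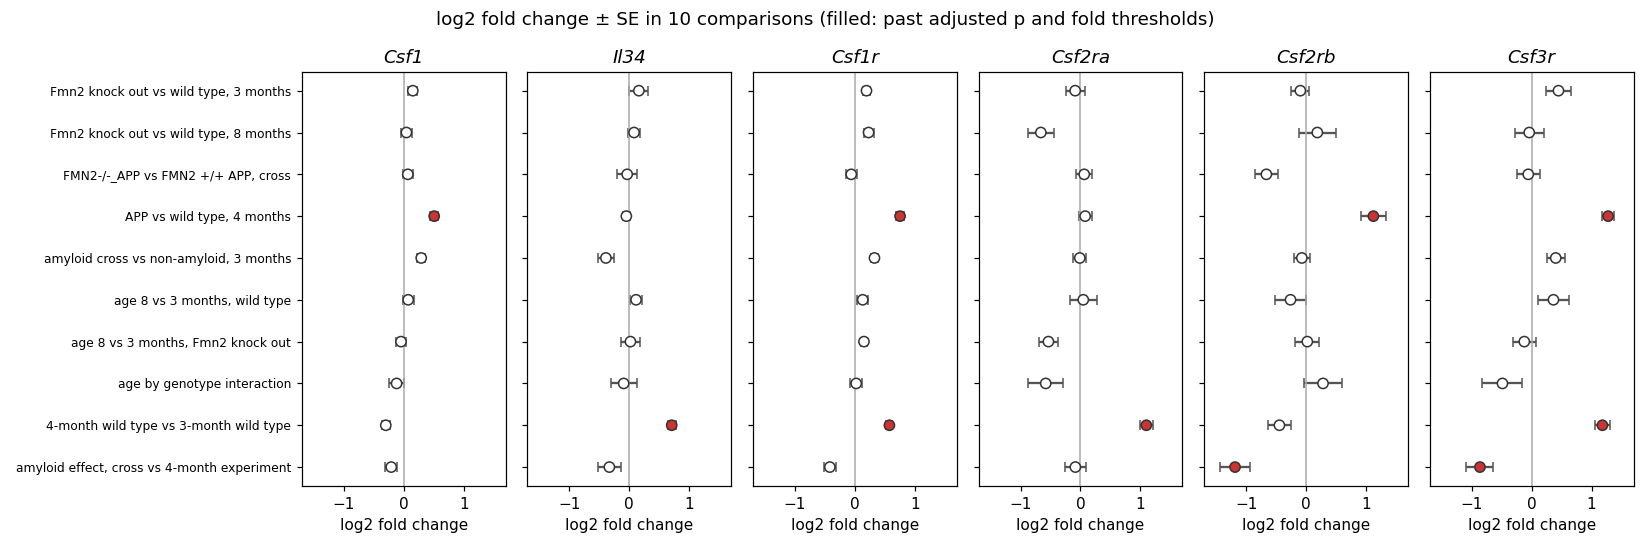
Log2 fold change with SE of each member in the 10 comparisons, first-named group minus second; filled symbols passed both thresholds. Filled symbols appear in the 4-month APP comparison (4 members), between 4-month and 3-month wild type mice (4 members) and in the difference of amyloid effects (Csf2rb and Csf3r).

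Between the cross groups no member was called, where 0.774% of 16656 genes were called. Csf2rb came nearest: the FMN2-/-_APP group had 0.744, 1.27 and 1.62 CPM (lowest, median, highest) and the FMN2 +/+ APP group 1.11, 2.01 and 2.77 CPM, on 18 to 79 reads. The ranges overlapped, and the log2 fold change was -0.66 ± 0.198 (adjusted p = 0.0951, edgeR quasi-likelihood test). DESeq2 placed the same difference past the threshold, at an adjusted p of 0.0383. The other members lay between -0.06 and 0.07 on the log2 scale. The direction follows the labels, which the Fmn2 counts go against. Of the pathway genes 0 of 18 were called, and of the plaque-associated genes Clec7a was lower (-2.68).

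The Fmn2 genotype was then compared without amyloid, at 3 and at 8 months. At 3 months no member was called, where 0.0301% of 16630 genes were called. All 5 knock out mice lay above all 5 wild type mice for Csf1r, with the values given above. The log2 fold change of Csf1r was 0.19 ± 0.0593 (adjusted p = 0.3, edgeR quasi-likelihood test). How many of all genes separated in this way was not counted. An unadjusted p below 0.05 in this test was reached by 1750 of the 16630 genes, Csf1r among them. Csf3r differed by 0.45 ± 0.201 (adjusted p = 0.465), Csf1 by 0.15 ± 0.075, Il34 by 0.16 ± 0.158, Csf2ra by -0.09 ± 0.157 and Csf2rb by -0.10 ± 0.151 on the log2 scale, with overlapping groups. Il34 spread more in knock out than in wild type mice, 53.5 ± 14.5 against 47.1 ± 4.54 CPM (SD, n = 5 each); its 5 knock out values were 34.2, 42.6, 60.2, 60.9 and 69.4 CPM. All 5 wild type libraries and 1 knock out library were in lane 5 and the other 4 knock out libraries in lane 6. With the lane as a covariate Csf1r was 0.14 and Il34 -0.47 on the log2 scale, neither called.

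At 8 months no member was called either, where 1.13% of 14665 genes were called. Csf2ra had the largest difference: 19.9, 7.16 and 11.7 CPM in the 3 wild type mice and 9.66, 7.82, 7.75, 7.57 and 8.55 CPM in the 5 knock out mice. The groups overlapped because wild type replicate 2, the shallowest library, lay below all knock out mice. The log2 fold change was -0.66 ± 0.221 (adjusted p = 0.12, edgeR quasi-likelihood test), and without that replicate it was called, at -0.90 (adjusted p = 0.00381). The highest value belonged to the only 8-month library in lane 6, and with the lane as a covariate the log2 fold change was -0.19 (adjusted p = 0.67). Csf1r differed by 0.23 ± 0.0842 (adjusted p = 0.143), and the other 4 members by -0.04 to 0.19 on the log2 scale.

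Age was compared within each genotype. In wild type mice no member was called, where 5.98% of 16325 genes were called, and the log2 fold changes from 3 to 8 months ran from -0.26 for Csf2rb to 0.36 for Csf3r. Csf3r was 5.42, 1.9 and 4.95 CPM at 8 months; without replicate 2, the lowest, it was called at 0.61 (adjusted p = 0.0478, edgeR quasi-likelihood test). The 3-month wild type libraries were all in lane 5 and the 8-month ones in lanes 6 and 7, so age and lane cannot be told apart in wild type mice. In knock out mice no member was called, where 6.36% of 15752 genes were called. Csf2ra was 17.6, 11.3, 10, 10.8 and 14.8 CPM at 3 months, so all 8-month mice lay below all 3-month mice, a separation not counted over all genes. Its log2 fold change was -0.54 ± 0.16 (adjusted p = 0.0546, edgeR quasi-likelihood test), and it was called without 3-month replicate 4 (-0.61, adjusted p = 0.0322) or replicate 5 (-0.59, adjusted p = 0.0411) and by DESeq2 (adjusted p = 0.0165). All 8-month knock out libraries were in lane 7 and no 3-month library was, so they cannot be told apart there either. The other members lay between -0.12 and 0.15 on the log2 scale.

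The age effect did not pass a test of the difference between genotypes for any member, where 3.73% of 17046 genes were called. Csf2ra came nearest, at -0.58 ± 0.292 (adjusted p = 0.238, edgeR quasi-likelihood test); without 8-month wild type replicate 2 it was called, at -0.80 (adjusted p = 0.0399). Csf3r gave -0.49 ± 0.334 and the other members -0.12 to 0.28. Of 18 pathway genes tested, only Tyrobp was called with age in wild type mice, where 5.98% of all genes were called. It rose by 0.58 on the log2 scale, from 7.28 to 9.3 CPM to 12.2 to 13.7 CPM. In 3-month knock out mice it was 10.7 to 14.5 CPM. With age in knock out mice and in the test of the difference between genotypes 0 pathway genes were called.

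The 4-month and 3-month wild type mice had the same lane number but differed in experiment, age and, by their markers, tissue, which cannot be told apart. Lane numbers do not show whether the 4-month and 3-month libraries were sequenced in the same run. Of the members 4 of 6 were called, all higher at 4 months, where 45.1% of 16661 genes were called. Csf3r gave 6.32 to 9.12 CPM at 4 months and 2.34 to 3.81 CPM at 3 months, with no overlap (log2 fold change 1.18 ± 0.128). Csf2ra gave 22.1 to 32.7 CPM against 11.6 to 15.9 CPM (1.10 ± 0.106) and Il34 65.8 to 81.3 CPM against 40.2 to 51.8 CPM (0.71 ± 0.0683), again with no overlap. Csf1r gave 90 to 102.2 CPM against 60 to 71.2 CPM (0.58 ± 0.0507); adjusted for exon length and GC, its log2 fold change was 0.24, below the threshold. The adjusted p of these 4 was at most 8.56e-07 by edgeR's quasi-likelihood test.

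The remaining 2 members were lower in the 4-month wild type mice without being called. Csf1 was 22.2 to 27.1 CPM against 26.5 to 32.1 CPM, a log2 fold change of -0.30 ± 0.0667 (adjusted p = 0.000875, edgeR quasi-likelihood test), and after the length and GC correction it was called at -0.63. Csf2rb had -0.44 ± 0.196 (adjusted p = 0.0524), was called at -0.77 after the correction and, without 4-month wild type replicate 4, at -0.58 (adjusted p = 0.00695). Homeostatic microglial markers had mixed directions in this comparison: Fcrls was 3.13 higher and P2ry12 0.97 lower on the log2 scale. The 6 granule cell markers were all called lower.

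Csf2rb and its neighbour Csf2rb2, at chr15:78282507-78305721 on the minus strand, are near-identical copies, and reads that match both can be lost or assigned to either, so their separate counts are uncertain. Csf2rb2 was 3.06 to 5.16 CPM in 3-month and 0.652 to 1.08 CPM in 4-month wild type mice, a log2 fold change of -2.01 ± 0.167 (adjusted p = 4.76e-08, edgeR quasi-likelihood test). Csf2rb held 30.2% ± 4.43 (SD, n = 5) of the reads of both genes in 3-month wild type mice, 55.3% ± 4.52 (n = 6) in 4-month wild type and 63.1% ± 5.38 (n = 6) in 4-month APP mice. The cross stood at 25.1% ± 5.53 (n = 7) in the FMN2-/-_APP and 31.5% ± 12.9 (n = 9) in the FMN2 +/+ APP group. The share thus separated the 4-month experiment from the other mice except for single FMN2 +/+ APP mice, which reached 53.7%.

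**Figure D5:**
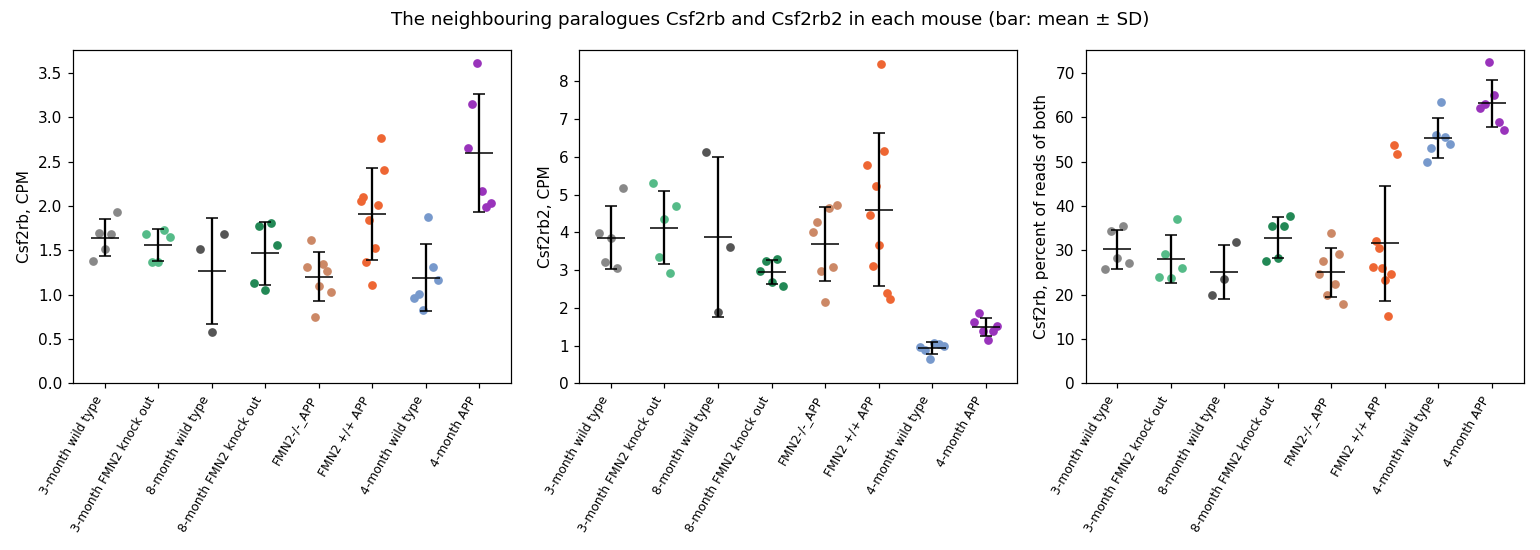
CPM of Csf2rb and of Csf2rb2, and Csf2rb as a percentage of the reads of both, in each mouse by labelled group with mean and SD. Csf2rb2 was lowest in the 4-month groups, where Csf2rb made up 50% to 72.4% of the pair's reads.

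Across the 46 mice, with each group's mean removed, 3 of the receptor genes varied together. Csf1r had a Pearson r of 0.71 with Csf3r (Spearman 0.68), 0.61 with Csf2rb (0.52) and 0.47 with its ligand Csf1 (0.51). Il34 had -0.40 with Csf1r (-0.20), and Csf1 had -0.28 with Il34 (-0.23). Without the 2 mice farthest from the median of Il34, its r with Csf1r was -0.17. Among 14752 genes the most similar to Csf1r were Laptm5 (r = 0.82), Vsir (0.81) and Itgb2 (0.78). Csf3r was most similar to Uba7 (0.79), Ctsz (0.76) and Tagln2 (0.76), and Csf2rb to Myo1f (0.66), Nfkb1 (0.66) and H2-D1 (0.65). Il34 was most similar to Bok (0.89), Slc25a22 (0.89) and Tspan17 (0.88), Csf1 to Taf8 (0.70), St3gal1 (0.69) and Gabrd (0.67), and Csf2ra to Fam193b (0.89), Clasrp (0.88) and Rfx1 (0.88). These are descriptions over mice that share groups, lanes and depth. For Il34 they rest in part on FMN2 +/+ APP replicate 8 and 3-month FMN2 knock out replicate 1, without which r with Bok was 0.74.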

How the data were processed

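The authors isolated RNA with TRIZOL, prepared TruSeq libraries, used STAR to align reads to mm10 and HTSeq (mode intersection-non-empty) to count them; the values the authors deposited are raw counts per gene. The annotation they counted on and the use of strand are not given in the sources used here. There were 48 files for 46 mice: the 2 runs of 1 mouse in each cross group were summed. Those 2 runs came from different lanes, and fits with the lane as a covariate used the lane of only 1 of them. Ensembl identifiers of 48349 of 48709 genes matched GENCODE M21 of the same build, which gave symbols, exon lengths and GC content.

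Counts were tested with edgeR 4.0.16 (R 4.3.3): filterByExpr, TMM scaling, quasi-likelihood fits of only the groups compared, and Benjamini-Hochberg adjustment over all genes tested. Levels are CPM with TMM factors over all 46 mice. Alternatives were DESeq2 1.42.0, relative log expression scaling, no filter, a smooth correction for exon length and GC content, the lane or replicate number as a covariate, and leaving out mice. The tests were tried on simulated counts. Depth ran from 6818809 to 43921030 reads per mouse, so Csf2rb, with 4 to 97 reads, is the least precise member; limits from 0 reads cover counting error only.

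All 6 members are named in each comparison; of the lists, genes called (at most the 4 of smallest p per list and comparison); Fmn2, App and Thy1 among the checks of the labels; and the 3 genes most like each member. Some genes of the lists are not reported here. The values of Jak1, Jak2 and Stat5b, which were not called, of Csf2rb2 as the near copy of a member, and the further names in counts of 5 or fewer were chosen after their values were seen, and so were the alternatives without mice set apart by Thy1 or choroid plexus markers. The members and lists were chosen with earlier results of these data known. Same-numbered mice did not deviate together (mean r of -0.028 to 0.062 in 4 comparisons), so the numbers were not used as pairs. The 8-month FMN2 knock out replicates 2 and 3 were the most alike pair of mice (chi-square per degree of freedom 1.62, against 3.5 to 6.4 for the others of that group), about as alike as the repeat runs of 1 mouse (1.72 and 2.15). They are labelled as separate mice and were kept apart; with them summed, leaving 4 such mice, no call of a member changed. P-values set a difference between groups against the spread between mice, each labelled mouse counted as separate.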

Additional observations from a re-analysis of the deposited data

Results flagged for a closer look

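The difference between amyloid and non-amyloid mice was itself tested between the cross and the 4-month experiment. It was smaller in the cross for Csf2rb (log2 difference -1.19), Csf3r (-0.86) and Csf1r (-0.42), the last below the fold threshold. Neither part isolates amyloid: the cross had its non-amyloid mice in another experiment, and at 4 months genotype coincided with lane. Of 42 member and group combinations examined with Dixon's gap, of which chance alone passes about 1 in 20, there were 2 with a mouse far from the rest. Csf1r in 3-month FMN2 knock out replicate 2 was 83.1 CPM, with 75.4 CPM as the nearest value. Csf3r in 3-month wild type replicate 1 was 2.34 CPM, with 3.55 CPM as the nearest value.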

How the results depend on the processing

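Of 1326 values of the members under all alternatives, 1240 kept their direction and side of the thresholds, 16 came to pass them, 7 no longer did and 63 changed sign; in each value that changed sign the gene was called neither before nor after. The 4 rises in 4-month APP mice were called with DESeq2, the other scaling, no filter, the length and GC correction and the replicate block, and without single mice 3 to 4 were, the exception being Csf1. For the other comparisons the cause of a change was not tested. One member became called in these cases: Csf2ra at 8 months between genotypes with no filter (-0.68) and with age in knock out mice by DESeq2 (-0.53), with no filter (-0.56) and without the library high in choroid plexus markers (-0.61), Csf2rb between the cross groups by DESeq2 (-0.66), and Il34 between cross and non-amyloid mice after the length and GC correction (-0.50). Csf3r did so in each cross group against wild type mice alone (0.61 and 0.65). Without single mice 0 to 1 member was called between genotypes at 8 months, with age in either genotype and in the difference of age effects, 4 to 5 between 4-month and 3-month wild type mice, 0 in the remaining cross and genotype comparisons and 2 in the difference of amyloid effects.

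Members that changed sign without being called did so as follows. After the length and GC correction Csf3r was 0.046 between genotypes at 8 months, Il34 -0.066 and Csf2ra -0.11 with age in wild type mice, Csf1 0.014 with age in knock out mice and Il34 0.18 in the difference of age effects. By DESeq2 Csf2ra was -0.017 with age in wild type mice. With no filter Il34 was -0.010 and Csf2rb -0.0052 with age in knock out mice, and Csf2rb was -0.018 there without the library high in choroid plexus markers. With the lane as a covariate Il34 was -0.47, Csf2ra 0.37 and Csf2rb 0.022 between genotypes at 3 months, Csf3r 0.21 at 8 months and Csf3r 0.085 between the cross groups. Against knock out mice alone Csf2ra was 0.071 in the FMN2-/-_APP group and 0.0069 in the FMN2 +/+ APP group, where Csf2rb was 0.31; against wild type mice alone Csf2rb was 0.21 in the FMN2 +/+ APP group. Without the mice of low Thy1, Csf2ra was -0.068 between the cross groups.

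With the replicate number as a block, Csf3r was 0.12 between genotypes at 8 months, and Csf1r 0.026, Csf2ra -0.033 and Csf3r 0.14 between the cross groups; the block changed no call of a member and lowered the genes called between genotypes from 5 to 2 at 3 months and from 166 to 4 at 8 months.

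Leaving out single mice gave these ranges that crossed 0. Between genotypes at 8 months Csf1 ran from -0.020 to 0.12, Il34 from -0.014 to 0.13 and Csf3r from -0.28 to 0.21. With age Csf1 ran from -0.014 to 0.14 and Csf2ra from -0.43 to 0.28 in wild type mice, and in knock out mice Csf1 from -0.081 to 0.0084, Il34 from -0.10 to 0.14, Csf2rb from -0.073 to 0.12 and Csf3r from -0.25 to 0.028. In the difference of age effects Csf1r ran from -0.045 to 0.13 and Il34 from -0.22 to 0.038. Between the cross groups Il34 ran from -0.14 to 0.015, Csf1r from -0.10 to 0.0041, Csf2ra from -0.038 to 0.13 and Csf3r from -0.14 to 0.063. Csf2ra ran from -0.060 to 0.064 between cross and non-amyloid mice, from -0.019 to 0.13 at 4 months and from -0.13 to 0.017 in the difference of amyloid effects.

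Counts over all genes moved more. Between genotypes at 3 months the 5 genes called became 90 by DESeq2, 14 with no filter, 3 with relative log expression scaling, the length and GC correction, the lane or without the library high in choroid plexus markers, and 3 to 49 without single mice, the highest without knock out replicate 1. At 8 months the 166 became 697 by DESeq2, 1124 with no filter, 6 with the length and GC correction, 3 with the lane, 5 with knock out replicates 2 and 3 summed, and 4 to 3087 without single mice. Between the cross groups the 129 became 357 by DESeq2, 56 without the libraries high in choroid plexus markers and 73 to 171 without single mice. With age the 977 in wild type mice became 1732 by DESeq2 and 148 to 3173 without single mice, and the 1002 in knock out mice 425 with the length and GC correction and 563 to 1039 without single mice. The 635 genes of the difference of age effects became 1414 by DESeq2, 399 with no filter, 25 with the length and GC correction, 227 with the replicates summed and 8 to 2791 without single mice. The highest count was that without 8-month wild type replicate 2, the shallowest library, in each of the 3 comparisons with 8-month wild type mice. Against knock out mice alone the 2905 genes called between cross and non-amyloid mice became 1640 and 1857. Depth limits Csf2rb most, at 4 reads in its lowest library.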
